A study of Mus musculus with 30 samples.

Results

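Microglial and inflammatory miRNAs were followed in the small RNA of the mouse cortex: the hairpins Mir146, Mir146b, Mir155, Mir223, Mir21a and Mir142, 6 of the 1174 mouse hairpins with a Mir symbol in GENCODE M21. They were chosen by name, with earlier results of these data known. A read was counted for a hairpin when its whole sequence matched the hairpin exactly in the sense direction. Each hairpin was split into its 5p and 3p arm, which gave 12 arms. The tissue came from 6-month-old WT mice and from their littermates that carried the 5xFAD transgenes in hemizygous form (AD), of both sexes, all congenic with C57BL6/J. The labels give the tissue as cortex and the study's methods as prefrontal cortex. The 5xFAD transgenes encode mutated human amyloid precursor protein and presenilin under the neuronal Thy1 promoter, so they are expressed mainly in neurons. Small RNA was cut from a gel and sequenced directly from 7 WT and 7 AD samples (traditional-seq). In PANDORA-seq, from 8 WT and 8 AD samples, T4PNK converted RNA ends into forms that adapters can join and AlkB removed methyl groups that stop reverse transcription. The labels place T4PNK before AlkB, while the study's methods describe AlkB first.

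A miRNA is cut from a hairpin as a short duplex, and 1 strand is loaded onto an Argonaute protein, which it guides to messenger RNAs through the seed at bases 2 to 8. Activated microglia and macrophages are known to induce miR-155, which promotes the inflammatory response, and miR-146a, which restrains NF-kB signalling by targeting Irak1 and Traf6. Blood-derived cells and microglia are known for miR-142, and granulocytes and other myeloid cells for miR-223. Many tissues express miR-21, which rises in reactive glia. Cortex tissue holds all of these cells among many neurons, so a change in the number of cells of a type and a change of RNA per cell could not be told apart in these libraries.

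The mature sequences are shown because the seed decides the targets and because reads of related arms can be confused. All 12 arms of the 6 hairpins matched RefSeq (GRCm38.p6), and the 6 arms tested in traditional-seq and both arms of Mir223 are given here with the seed in capitals, 5′ to 3′.
miR-146a-5p (Mir146), chr11:43374435-43374456, minus strand: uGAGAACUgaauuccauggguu
miR-146b-5p (Mir146b), chr19:46342790-46342811, plus strand: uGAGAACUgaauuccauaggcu
miR-155-5p (Mir155), chr16:84714143-84714165, plus strand: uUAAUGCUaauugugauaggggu
miR-21a-5p (Mir21a), chr11:86584120-86584141, minus strand: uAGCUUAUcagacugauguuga
miR-142a-5p (Mir142), chr11:87756867-87756887, plus strand: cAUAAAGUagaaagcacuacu
miR-142a-3p (Mir142), chr11:87756903-87756925, plus strand: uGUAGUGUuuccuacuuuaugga
miR-223-5p (Mir223), chrX:96242842-96242864, plus strand: cGUGUAUUugacaagcugaguug
miR-223-3p (Mir223), chrX:96242884-96242905, plus strand: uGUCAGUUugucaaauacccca
The miR-146a-5p and miR-146b-5p sequences share their first 17 bases and thus the seed, and differ by G18A and U21C, with miR-146a first and positions counted from the 5′ end. A read too short to reach base 18 matched both and was counted for both. Such reads made up 0.357% to 4.04% of miR-146a-5p reads in traditional-seq and 8.53% to 22.7% in PANDORA-seq, which was the largest share of shared reads for any of these arms. The seed of miR-21a-5p occurs in 1 other RefSeq hairpin (Mir21c), and the seeds of the arms listed other than these and the miR-146 pair occur in no other mouse hairpin of the RefSeq table.

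In the GENCODE annotation (GRCm38), the Mir155 hairpin lies in an exon of its long non-coding host gene Mir155hg, and the Mir142 hairpin in an intron of Mir142hg and opposite Mir142b. The Mir21a hairpin lies in an exon of the protein-coding gene Vmp1, the Mir146b hairpin in an intron of Mfsd13a, and the Mir223 hairpin in an exon of F630028O10Rik. No other annotated gene overlaps Mir146.

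Traditional-seq libraries held 9370669 to 17053412 reads, of which 35.7% to 50.2% matched a miRNA hairpin. PANDORA-seq libraries held 54926347 to 105876141 reads, of which 1.34% to 5.29% matched one. Levels are given as CPM, counts scaled by the miRNA reads of each library and by its TMM factor, within each protocol. A level is thus relative to other miRNAs and not to all small RNA. Because of the TMM factor, neither a level nor a sum of levels is the plain fraction of a library's miRNA reads. Markers of neurons (miR-124, miR-9, miR-128, miR-137 and miR-138 arms, 12 arm features) summed to 190056 to 735979 CPM in traditional-seq and 107851 to 207379 CPM in PANDORA-seq. Red blood cell markers (miR-451a, miR-144 and miR-486) summed to 445 to 860 CPM in WT and 317 to 777 CPM in AD libraries of traditional-seq. In PANDORA-seq the red blood cell sum was 3253 to 14252 CPM in WT and 3492 to 71361 CPM in AD libraries, with miR-486-5p alone at 68862 CPM in AD replicate 1. By contrast, miR-451a-5p was at 184 to 713 CPM in WT and 165 to 432 CPM in AD libraries of PANDORA-seq. Its log2 fold change and those of both miR-144 arms were below 0 there. AD replicate 1 of PANDORA-seq also stood apart in the tails described further on. It was the lowest AD library of PANDORA-seq for miR-146a-5p (229 CPM) and miR-142a-3p (5.03 CPM).

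The arms covered a wide range of levels. In traditional-seq, miR-21a-5p held rank 22 and miR-146b-5p rank 44 of 1669 arm features by mean level, followed by miR-146a-5p at rank 114, miR-142a-5p at 215, miR-142a-3p at 348 and miR-155-5p at 407. The miR-223 arms held ranks 483 (5p) and 520 (3p). Within single libraries miR-21a-5p exceeded miR-146b-5p in 14 of 14, by 1.66-fold to 6.38-fold, and the order down to miR-142a-3p also held in all 14. The lowest arms did not keep their order, since miR-142a-3p was above miR-155-5p in 10 of 14 libraries, miR-155-5p above miR-223-5p in 11 of 14 and miR-223-5p above miR-223-3p in 8 of 14. The remaining arms, the 3p arms of Mir146, Mir146b, Mir155 and Mir21a, had 0 to 11 reads in any library. Where a library had 0 reads, the limit of 3 counts corresponds to at most 0.424 to 0.778 CPM in traditional-seq and 0.879 to 4.08 CPM in PANDORA-seq, a limit that covers counting error only.

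In traditional-seq, miR-155-5p had the largest log2 fold change between the genotypes of the 6 arms tested, with mean levels of 5.80 ± 2.47 CPM in AD libraries against 2.28 ± 1.94 CPM in WT libraries (SD, n = 7 each). The WT libraries, in replicate order, held 4, 10, 7, 11, 26, 7 and 9 reads, and the AD libraries held 56, 42, 30, 17, 13, 22 and 17 reads. All 7 AD libraries lay above the WT median of 1.89 CPM, and 6 of 7 WT libraries lay below every AD library, while WT replicate 5 alone reached 6.57 CPM. The log2 fold change of AD over WT was 1.37 (SE 0.43), with rank 2 by p-value of all arms tested, and did not pass the correction over 456 arms (edgeR quasi-likelihood test, adjusted p = 0.999). With WT replicate 5 left out it was 1.84 and still missed the threshold of 0.05 (edgeR quasi-likelihood test, adjusted p = 0.0515). Leaving out the highest WT library must raise the log2 fold change, so this p is no evidence for a difference. Over the alternatives in sample choice, matching and scaling the log2 fold change ran from 1.02 to 1.84 and stayed above 0. This arm passed the filter on low counts through its AD libraries, since 7 AD but 3 WT libraries reached the filter level of 2.203 CPM, which the filter reads before TMM scaling (on the scaled levels WT replicate 5 alone did), and without the filter its log2 fold change was 1.41 (adjusted p = 0.706).

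The repressor of NF-kB signalling, miR-146a-5p, was the next arm by p-value. Its level was 192, 212, 162, 332, 237, 119 and 323 CPM in the WT libraries and 479, 1381, 153, 286, 406, 425 and 310 CPM in the AD libraries, in replicate order. In 4 of 7 AD libraries it was above every WT library, the others lay inside the WT range, and AD replicate 2 stood far above the rest. The log2 fold change was 1.12 (SE 0.41, edgeR quasi-likelihood test, adjusted p = 0.999). Without AD replicate 2 it was 0.53 (edgeR quasi-likelihood test, adjusted p = 0.834).

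Both arms of the hematopoietic miRNA miR-142 had higher means in AD than in WT. For miR-142a-5p the WT libraries lay between 13.5 and 53.8 CPM with a median of 41.1, and the AD libraries between 36.3 and 99.0 CPM with a median of 55.6. The ranges overlapped, with 4 of 7 AD libraries above every WT library, and the log2 fold change was 0.70 (SE 0.31, edgeR quasi-likelihood test, adjusted p = 0.999). For miR-142a-3p the WT libraries lay between 1.49 and 7.14 CPM and the AD libraries between 2.09 and 32.4 CPM, with AD replicate 2 again the highest. Its log2 fold change was 1.20 (SE 0.57, edgeR quasi-likelihood test, adjusted p = 0.999). Without AD replicate 2 the values were 0.48 for miR-142a-5p and 0.45 for miR-142a-3p, so the difference of miR-146a-5p and of both miR-142 arms was smaller without the same library, while miR-155-5p was at 1.18 without it. The red blood cell marker miR-451a-5p was at 88.1 to 519 CPM in WT (median 499) and 99.7 to 518 CPM in AD libraries (median 293). Its log2 fold change was -0.50 (SE 0.42, edgeR quasi-likelihood test, adjusted p = 0.999). The part of blood cells in the differences of the miR-146a and miR-142 arms was not tested.

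The 2 most abundant arms had overlapping ranges and smaller differences. In traditional-seq miR-146b-5p was at 2159 ± 651 CPM in WT and 2442 ± 486 CPM in AD libraries (SD, n = 7 each), a log2 fold change of 0.18 (95% interval -0.26 to 0.62, edgeR quasi-likelihood test, adjusted p = 0.999). For miR-21a-5p the WT libraries lay between 2883 and 14496 CPM with a median of 4794, and the AD libraries between 4300 and 14320 CPM with a median of 5077. The highest libraries were WT replicate 6, and AD replicates 3 (14320 CPM) and 5 (10158 CPM), and the log2 fold change was 0.24 (95% interval -0.49 to 0.96, edgeR quasi-likelihood test, adjusted p = 0.999). It was -0.01 without AD replicate 3 and 0.57 without WT replicate 6. The miR-223 arms did not pass the filter in traditional-seq. Reads of miR-223-3p numbered 2 to 16 in WT and 1 to 9 in AD libraries, and those of miR-223-5p 3 to 16 and 3 to 17.

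Of the 12 arms, 6 were tested in traditional-seq and none was called higher or lower in AD. Over all 456 arms tested, 0% were called higher and 0% lower at an adjusted p under 0.05, and 8 arms were higher and 1 lower at an unadjusted p under 0.05 (9 and 1 by edgeR's likelihood ratio test, 11 and 2 by DESeq2). Of those 8 arms, 4 were the arms described here: miR-155-5p, miR-146a-5p, miR-142a-5p and miR-142a-3p, with ranks 2, 3, 7 and 9 by p-value. Without AD replicate 2, only miR-155-5p of these 4 had an unadjusted p under 0.05. The log2 fold change was above 0 in 6 of the 6 arms tested, with a median of 0.91, where 53.3% of all arms were above 0 and their median was 0.01. The median was 0.70 over the 5 arms without miR-155-5p, which the filter kept through its AD libraries, and 0.47 over the 6 arms without AD replicate 2. Counted as whole hairpins, Mir223 was tested as well. Its log2 fold change was -0.38 (SE 0.38, edgeR quasi-likelihood test, adjusted p = 0.988), while those of the other hairpins were above 0. The arm counts and medians describe the arms tested and not all 12. Since the hairpins were chosen with earlier results of these data known, the counts are not a test of them as a set.

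**Figure D1:**
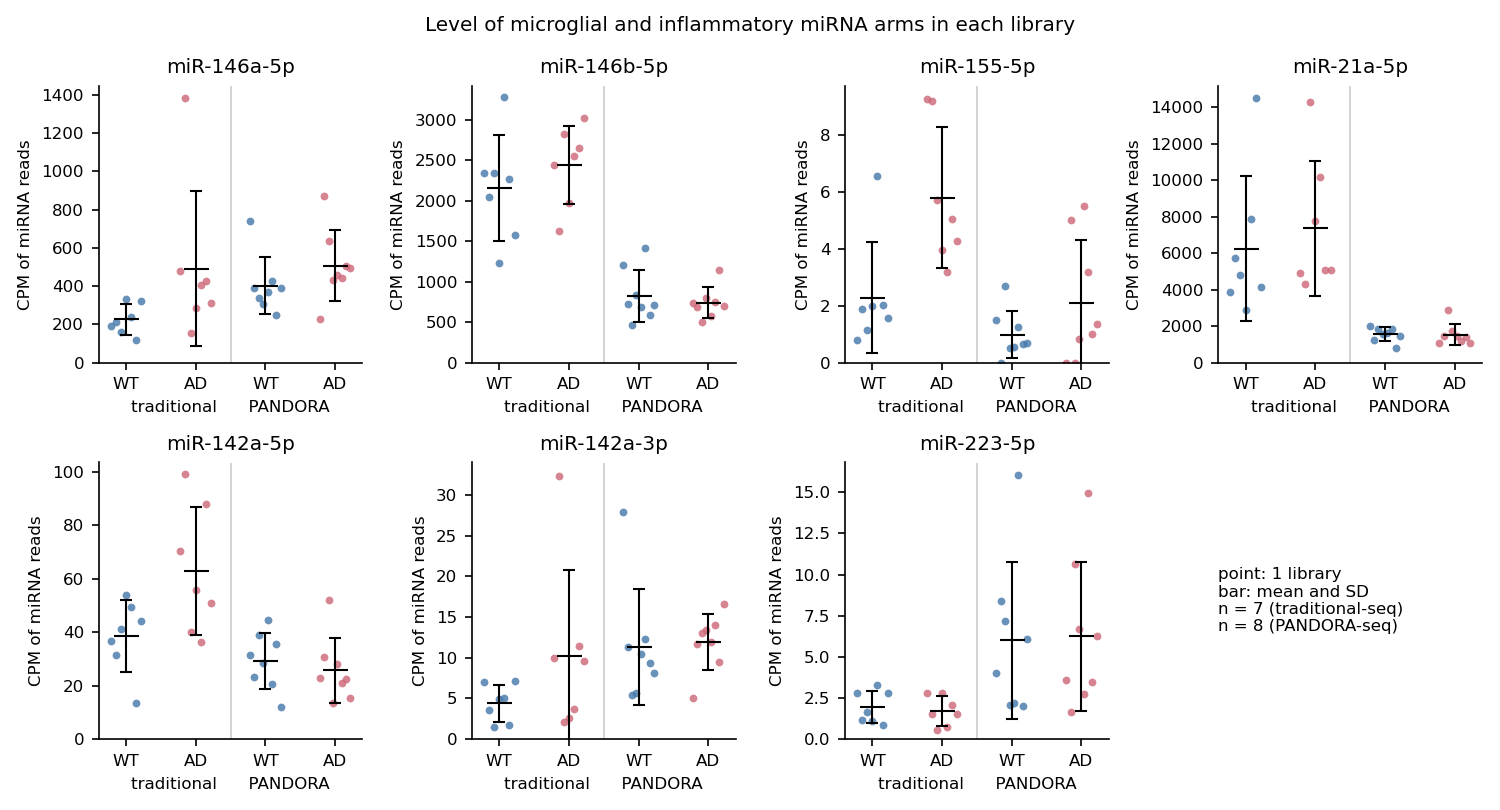
CPM of miRNA reads (y axis) of 7 arms in each library of the 4 groups, with the mean and SD (n = 7 per genotype in traditional-seq, 8 in PANDORA-seq). In traditional-seq all AD libraries of miR-155-5p lie above 3 CPM and 1 AD library of miR-146a-5p reaches 1381 CPM, while miR-21a-5p and miR-146b-5p fall between traditional-seq and PANDORA-seq in both genotypes.

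In PANDORA-seq the estimates for the arms tested were smaller. For miR-146a-5p the WT libraries lay between 247 and 742 CPM with a median of 380, and the AD libraries between 229 and 869 CPM with a median of 475. Above the WT median lay 7 of 8 AD libraries, all but AD replicate 1. Its log2 fold change was 0.34 (SE 0.26, edgeR quasi-likelihood test, adjusted p = 0.666; 95% interval -0.18 to 0.86). Reads of miR-155-5p numbered 3, 0, 3, 1, 1, 4, 1 and 2 in the WT and 0, 9, 0, 3, 12, 7, 2 and 5 in the AD libraries, too few for the filter. Its mean level was 0.984 ± 0.833 CPM in WT and 2.11 ± 2.19 CPM in AD libraries (SD, n = 8 each). The mean was higher in AD as in traditional-seq, with overlapping libraries in both protocols. The difference was not tested in PANDORA-seq alone.

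The other arms tested in PANDORA-seq had log2 fold changes smaller than their SE: miR-142a-5p at -0.20 (SE 0.30), miR-142a-3p at 0.07 (SE 0.33), miR-146b-5p at -0.17 (SE 0.24), miR-21a-5p at -0.01 (SE 0.24) and miR-223-5p at 0.01 (SE 0.50). The median over the 6 arms tested was 0.00, against 0.04 over all 465 arms tested. None of the 6 was called, where 0% of all arms were called higher and 0.215% lower, the latter being Mir1291-5p, named after its value was seen. With each library left out in turn, miR-146a-5p stayed between 0.18 and 0.52, the highest value without WT replicate 1, which had the highest WT level. The other estimates turned on single libraries. For miR-142a-3p they ran from -0.06 without WT replicate 3 to 0.40 without WT replicate 1, for miR-223-5p from -0.32 without AD replicate 6 to 0.46 without WT replicate 6, and for miR-21a-5p from -0.21 without AD replicate 3 to 0.06 without AD replicate 1. For miR-142a-5p the range was -0.42 without AD replicate 3 to -0.12 without AD replicate 4, and for miR-146b-5p -0.30 without WT replicate 3 to -0.01 without WT replicate 6. The test of the difference itself, the protocol by genotype term over 610 arms and all 30 libraries, called 0% of arms and none of these. The difference of the AD effect, PANDORA-seq minus traditional-seq, ran from -0.98 (SE 0.66) for miR-142a-3p to 0.39 (SE 0.69) for miR-223-5p, and was -0.67 (SE 0.48) for miR-146a-5p. The effects in the 2 protocols were therefore not shown to differ.

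**Figure D2:**
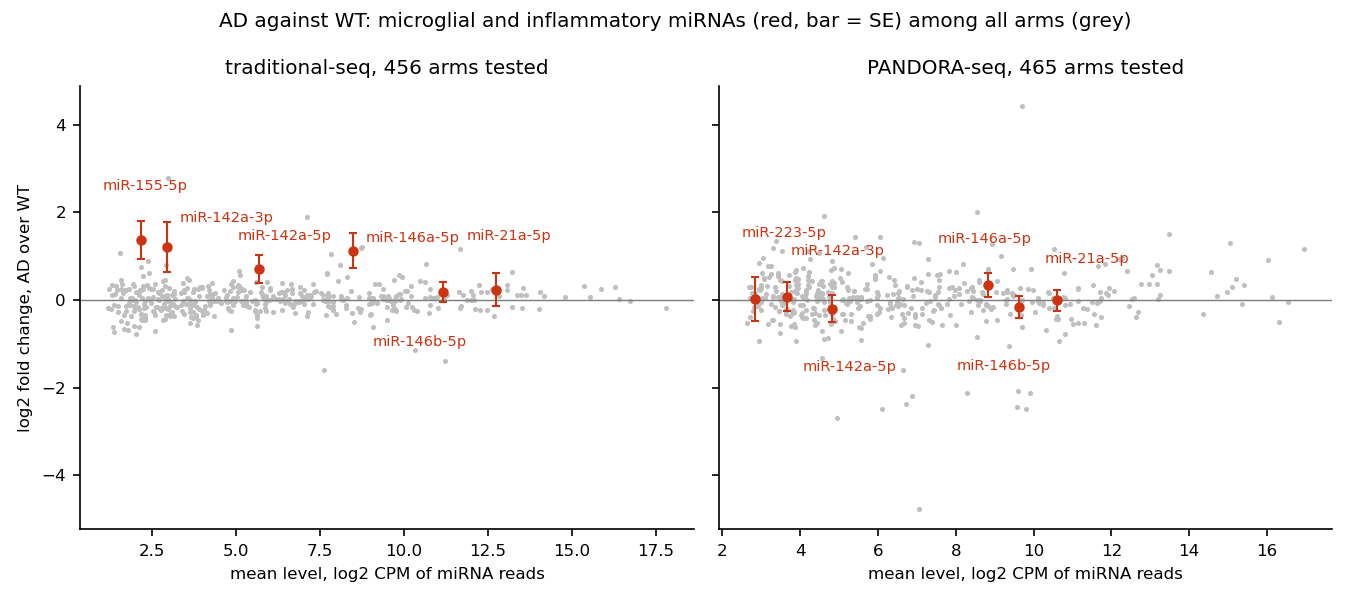
Log2 fold change of AD over WT (y axis) against mean level in log2 CPM of miRNA reads (x axis) for all arms tested in traditional-seq (456, left) and PANDORA-seq (465, right), with the microglial and inflammatory arms in red with their SE. In traditional-seq miR-155-5p, miR-142a-3p and miR-146a-5p lie between 1.12 and 1.37, and in PANDORA-seq the 6 red arms lie between -0.20 and 0.34.

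Other miRNAs linked to inflammation or immune cells were read as a list of 13 hairpins (Mir147, Mir150, Mir187, Mir221, Mir222, Mir23a, Mir24-1, Mir24-2, Mir27a, Mir31, Mir34a, Mir342 and Mir511). In traditional-seq 16 of its 25 arm features were tested and 0 were called in either direction, with 10 above 0 and a median log2 fold change of 0.02. In PANDORA-seq 18 were tested and 0 were called, with 8 above 0 and a median of -0.03. Their log2 fold changes ran from -0.40 to 0.59 in traditional-seq and from -0.57 to 0.96 in PANDORA-seq, and the highest in PANDORA-seq was miR-34a-5p (edgeR quasi-likelihood test, adjusted p = 0.333). Of the other cell type lists, oligodendrocyte arms (miR-219a and miR-338) summed to 762 to 2041 CPM in WT and 1134 to 4377 CPM in AD libraries of traditional-seq, and endothelial arms (miR-126a) to 7280 to 18208 and 6772 to 12889 CPM. Arms known from liver, muscle and pancreas (5 hairpins) summed to 257 to 468 CPM in WT and 243 to 467 CPM in AD libraries of traditional-seq, and to 463 to 1570 CPM and 431 to 9503 CPM in PANDORA-seq. Of these, miR-206-3p alone was at 24.3 to 224 CPM in WT and 30.9 to 8336 CPM in AD libraries of PANDORA-seq. None of these marker arms was called between the genotypes in either protocol, and their part in the differences above was not tested.

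Levels were also compared across libraries without regard to genotype. For the larger arm of each hairpin tested in traditional-seq, the other arms with the most similar profile were those with the smallest root mean square difference of centred log2 levels over the 14 libraries. For miR-146a-5p the nearest of 455 arms was miR-142a-5p (0.51), followed by miR-26b-5p (0.53), against a median of 0.997 over all arms. The 14 libraries include AD replicate 2, the highest for both miR-146a-5p (1381 CPM) and miR-142a-5p (99.0 CPM). The part of this library in their likeness was not tested. For miR-142a-5p the nearest arms were miR-337-5p (0.43) and miR-26b-5p (0.43), and for miR-155-5p the merged arm miR-365-3p (0.73) and miR-142a-5p (0.75). The nearest to miR-146b-5p were miR-25-3p (0.19) and miR-370-5p (0.26), and to miR-21a-5p they were miR-203-3p (0.26) and miR-382-5p (0.29). The difference between miR-146a-5p and miR-146b-5p, which carry the same seed, was 1.03, where the median over all arms was 0.997 for miR-146a-5p and 0.714 for miR-146b-5p.

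The ratio of the 2 miR-146 arms was taken within each library on reads that matched only 1 of them, a measure chosen after the data were seen. The log2 ratio of miR-146a-5p to miR-146b-5p was -3.31 ± 0.867 in WT and -2.61 ± 1.21 in AD libraries of traditional-seq (SD, n = 7 each), which differed by less than their spread (exact permutation test, two-sided, p = 0.240, and 0.240 adjusted over 3 comparisons). Without AD replicate 2, the AD library with the highest ratio at -0.24, the difference fell from 0.70 to 0.31. In PANDORA-seq it was -1.14 ± 0.438 in WT and -0.648 ± 0.784 in AD libraries (SD, n = 8 each; exact permutation test, p = 0.146, adjusted p = 0.219). Without AD replicate 1, which had the lowest AD ratio at -1.85, the difference rose from 0.49 to 0.66 (exact permutation test, p = 0.0404 before adjustment). Leaving out the lowest AD ratio must raise the difference, so this p is no evidence for one. Between the protocols the ratio differed by 2.06 on the log2 scale (two-sided permutation test with 100000 shuffles, p = 2e-05, the smallest that this test can give since it doubles the smaller tail, adjusted p = 6e-05). In traditional-seq miR-146b-5p exceeded miR-146a-5p in all 14 libraries, by 0.24 to 4.27 on the log2 scale, and in PANDORA-seq it did so in all but AD replicates 2 and 3.

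On a TMM scale common to both protocols, 5 of the 7 arms tested were lower in PANDORA-seq than in traditional-seq relative to the other miRNA arms. The log2 fold change of PANDORA-seq over traditional-seq was -3.07 (SE 0.22) for miR-21a-5p, -2.48 (SE 0.17) for miR-146b-5p, -2.23 (SE 0.39) for miR-155-5p and -1.81 (SE 0.23) for miR-142a-5p (edgeR quasi-likelihood test over 610 arms, adjusted p from 7.58e-15 to 3.45e-06). For miR-146a-5p it was -0.52 (SE 0.25, adjusted p = 0.0483), a call that was lost with reads of 20 to 24 nt (adjusted p = 0.0886) and with the 28 libraries whose file code occurred in both protocols (adjusted p = 0.0785). On the common scale miR-223-5p was higher, at 0.80 (SE 0.34, adjusted p = 0.0307), and miR-142a-3p was not called, at -0.18 (SE 0.34, adjusted p = 0.620). Of all arms, 47.2% were called higher and 37.9% lower in PANDORA-seq, so a call between the protocols was common, and the median arm was at 0.28. With all reads as the library size, the median arm was at -3.25, with 61 arms of 662 higher and 539 lower, and all 7 of these arms were lower, miR-223-5p included at -2.16. The direction for miR-223-5p thus holds only relative to other miRNAs. Most of its PANDORA-seq reads were long, as 79.6% of them in WT and 73.6% in AD libraries were longer than 26 nt, against 23.5% and 35.1% in traditional-seq, and with reads of 20 to 24 nt the arm did not pass the filter and gave no value. The protocols also differed in depth, in enzyme treatment and in the longest read (42 and 45 nt), and their parts cannot be told apart.

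The reads themselves differed from the reference in their starts. Nearly all reads of miR-146a-5p (99.2% in traditional-seq), miR-146b-5p (99.96%), miR-21a-5p (99.8%) and miR-155-5p (100%) began at the mature 5′ end. In miR-142a-5p, 89.6% of 3451 reads in traditional-seq and 78.5% of 832 in PANDORA-seq began 2 bases before it. The hairpin is printed with the RefSeq arms in capitals (chr11:87756864-87756927, plus strand), followed by the most frequent read of each arm in traditional-seq with bases 2 to 8 in capitals, to show how the start moves the seed.
Mir142 hairpin: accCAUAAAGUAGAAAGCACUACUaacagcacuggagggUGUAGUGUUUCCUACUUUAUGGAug
Most frequent miR-142a-5p read: cCCAUAAAguagaaagcacu
Most frequent miR-142a-3p read: gUAGUGUUuccuacuuuaugga
The first of these reads was 73.1% of miR-142a-5p reads and occurred in all 14 libraries, and its bases 2 to 8 are not those of the RefSeq mature. Between 85.1% and 93.4% of reads in each traditional-seq library began there, and between 62.5% and 88.7% in each PANDORA-seq library. For miR-142a-3p, 37.1% of 490 reads began at the RefSeq start and 48.6% began 1 base after it in traditional-seq, against 65.9% and 23.1% of 416 reads in PANDORA-seq.

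**Figure D3:**
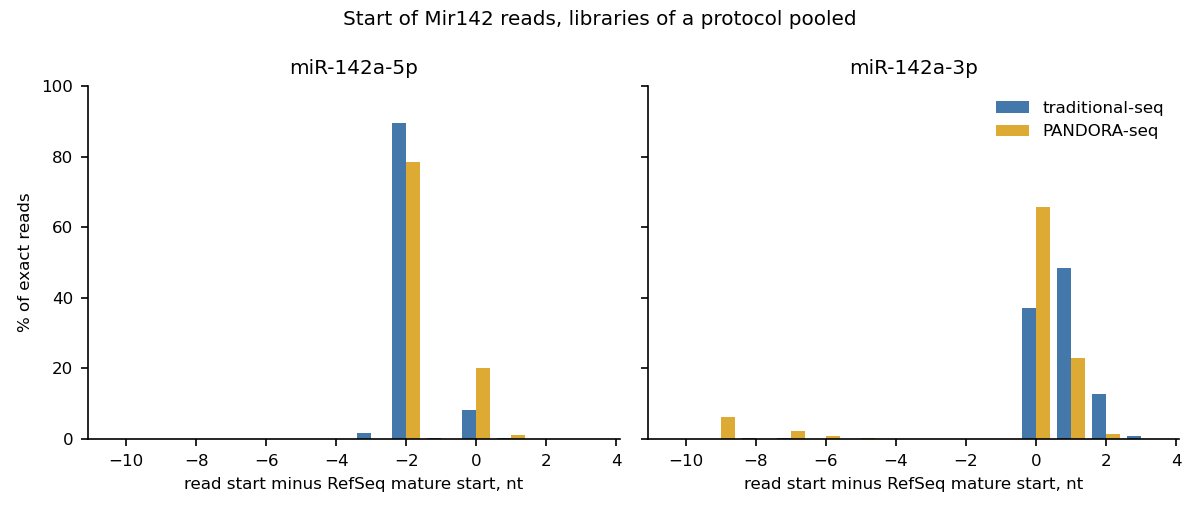
Percent of exact reads (y axis) by the distance of the read start from the RefSeq mature start in nt (x axis) for both Mir142 arms, with the libraries of each protocol pooled. The 5p reads peak 2 bases before the RefSeq start in both protocols (89.6% and 78.5%), and the 3p reads fall mainly on the RefSeq start and the base after it.

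No difference in start position was called between the genotypes. With at least 100 reads in every library, miR-146a-5p, miR-146b-5p and miR-21a-5p entered the tests of read form, together with all other arms of that depth. For the share at the most frequent start, the mean read length and the share with a tail, 0% of arms were called in either protocol. These were two-sided exact permutation tests, with a smallest possible p of 0.000583 in traditional-seq and 0.000155 in PANDORA-seq. In traditional-seq a single arm at the smallest p could not pass the correction over all arms of that depth. The lack of calls there therefore cannot exclude a difference in a single arm. In PANDORA-seq a single arm at the smallest p could pass. With a minimum of 20 reads miR-142a-5p entered as well, and 89.8% ± 3.41 of its reads in AD and 88.4% ± 1.93 in WT libraries of traditional-seq had the shifted start (SD, n = 7 each; exact permutation test, p = 0.350, adjusted p = 1). In PANDORA-seq the share was 75.5% ± 6.80 in AD and 80.6% ± 6.22 in WT libraries (SD, n = 8 each; exact permutation test, p = 0.136, adjusted p = 0.781). Mean read length of miR-142a-5p in PANDORA-seq was 19.5 ± 0.650 nt in AD and 18.8 ± 0.463 nt in WT libraries, which did not pass the correction (exact permutation test, p = 0.0333, adjusted p = 0.566). No hairpin described here had enough reads of both arms for the arm ratio, which was tested on 65 hairpins in traditional-seq and 42 in PANDORA-seq with 0% called.

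Between the protocols, the share of reads at the most frequent start was called higher in PANDORA-seq for 18.7% and lower for 59% of 134 arms, with a median difference of -0.28 percentage points. It differed by -0.51 points for miR-21a-5p (permutation test, adjusted p = 2.98e-05) and -0.18 points for miR-146b-5p (permutation test, adjusted p = 0.00146), and was not called for miR-146a-5p (permutation test, adjusted p = 0.322).

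Reads were shorter in PANDORA-seq. Mean read length was 23.3 ± 0.326 nt in traditional-seq (SD, n = 14) and 21.6 ± 0.202 nt in PANDORA-seq (SD, n = 16) for miR-146b-5p, 22.8 ± 0.139 and 21.5 ± 0.111 nt for miR-21a-5p, and 21.5 ± 0.116 and 20.2 ± 0.154 nt for miR-146a-5p, and the libraries of the protocols did not overlap. Each difference reached the smallest p that 100000 shuffles can give (permutation test, p = 1e-05, adjusted p = 1.14e-05 over 134 arms). Of all 134 arms, 92.5% were called shorter and 5.97% longer in PANDORA-seq, with a median difference of -0.87 nt, against -1.71, -1.31 and -1.28 nt for these arms. With reads that match 1 arm only, which leaves out the short reads common to both miR-146 arms, the difference was -1.27 nt for miR-146b-5p, -1.31 nt for miR-21a-5p and -0.76 nt for miR-146a-5p (permutation test, adjusted p = 1.17e-05 each). The most frequent reads are printed, bases 2 to 8 in capitals, to show the base missing at the 3′ end in PANDORA-seq.
miR-146b-5p, traditional-seq: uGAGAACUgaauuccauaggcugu
miR-146b-5p, PANDORA-seq: uGAGAACUgaauuccauaggcug
miR-21a-5p, traditional-seq: uAGCUUAUcagacugauguugac
miR-21a-5p, PANDORA-seq: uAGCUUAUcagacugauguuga
miR-142a-5p, traditional-seq: cCCAUAAAguagaaagcacu
miR-142a-5p, PANDORA-seq: cCCAUAAAguagaaagcac
The most frequent read held 24 and 23 nt for miR-146b-5p, 23 and 22 nt for miR-21a-5p, and 20 and 19 nt for miR-142a-5p, 1 nt less in PANDORA-seq each time. The level of miR-142a-5p depended on the length window, since 67.4% of its PANDORA-seq reads had 19 nt and 73.7% of its traditional-seq reads had 20 nt: with reads of 20 to 24 nt its log2 fold change of PANDORA-seq over traditional-seq was -4.96 in place of -1.81.

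The reads of miR-223-5p went the other way. In PANDORA-seq 40.0% to 100% of its reads in AD libraries and 33.3% to 100% in WT libraries were longer than 26 nt, against 0% to 55.6% and 0% to 50.0% in traditional-seq. The hairpin with the RefSeq arms in capitals (chrX:96242817-96242926, plus strand) and the most frequent read of each protocol show that the PANDORA-seq reads ran on from the 5p arm into the loop.
Mir223 hairpin: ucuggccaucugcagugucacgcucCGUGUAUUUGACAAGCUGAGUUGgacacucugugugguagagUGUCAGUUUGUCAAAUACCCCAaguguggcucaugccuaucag
Most frequent miR-223-5p read, traditional-seq: cGUGUAUUugacaagcugaguug
Most frequent miR-223-5p read, PANDORA-seq: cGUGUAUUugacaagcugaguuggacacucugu
These reads had 23 and 33 nt and made up 27.2% of 125 and 23.3% of 223 reads. The counts were 3 to 51 reads in a library, so the shares within single libraries rest on few reads and were not tested. The other arm, miR-223-3p, with 0 to 4 reads in each PANDORA-seq library, did not pass the filter.

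**Figure D4:**
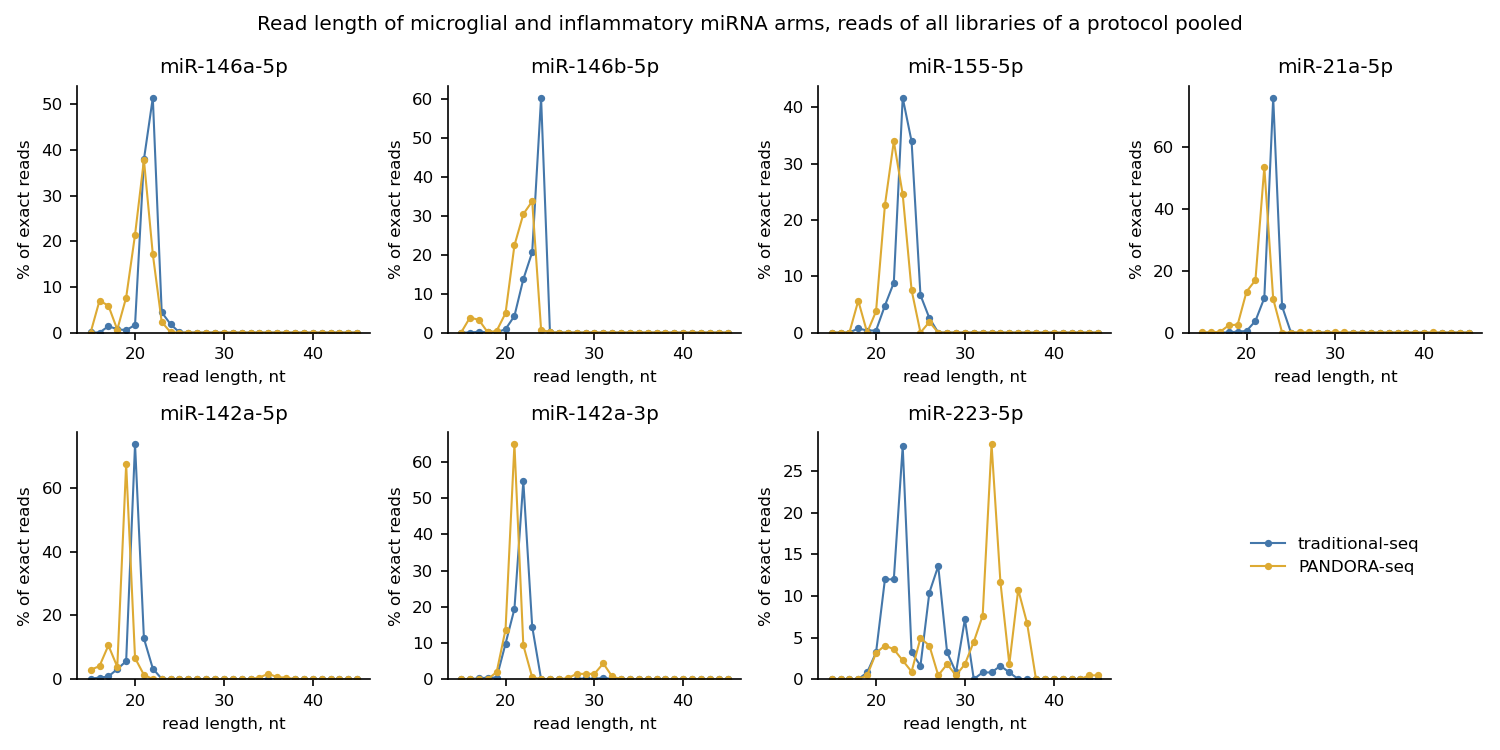
Percent of exact reads (y axis) by read length in nt (x axis) for 7 arms, with reads of all libraries of a protocol pooled. The PANDORA-seq peak lies 1 nt below the traditional-seq peak for miR-146b-5p, miR-21a-5p and miR-142a-5p, and at 33 nt against 23 nt for miR-223-5p.

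Untemplated 3′ tails, 1 or 2 bases after an exact match that the hairpin does not encode, were less frequent in PANDORA-seq. The tail share was 29.9% ± 5.92 in traditional-seq and 6.46% ± 1.17 in PANDORA-seq for miR-146a-5p, 17.5% ± 7.12 and 5.25% ± 8.08 for miR-146b-5p, and 21.2% ± 4.94 and 1.84% ± 2.45 for miR-21a-5p (SD, n = 14 and 16; permutation test, adjusted p = 9.14e-05 for miR-146b-5p and 1.13e-05 for the others). Among WT libraries alone, which leave out the AD library with most tails, miR-146b-5p was at 16.5% ± 7.45 and 2.59% ± 0.615 (SD, n = 7 and 8). All 134 arms were called lower (100%) and 0% higher, with a median of 25.0% and 4.06%, so the lower share was common to the arms tested. Tails of miR-21a-5p in traditional-seq ended mostly in A (median over libraries 47.6%) or U (median 40.0%), with A ahead in 10 of 14 libraries. Those of miR-146b-5p ended mostly in C (median 47.1%) or A (median 30.5%), with C ahead in 11 of 14.

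Between the genotypes the tail shares were 31.0% ± 5.13 in WT and 28.8% ± 6.85 in AD libraries for miR-146a-5p in traditional-seq (SD, n = 7 each; exact permutation test, p = 0.506, adjusted p = 0.843). In PANDORA-seq, miR-146a-5p tails were at 7.15% ± 1.14 in WT and 5.77% ± 0.744 in AD libraries (SD, n = 8 each; exact permutation test, p = 0.0160, adjusted p = 0.678). In AD replicate 1 of PANDORA-seq, 34.1% of miR-146b-5p reads and 10.7% of miR-21a-5p reads had a tail, where the WT libraries reached at most 3.61% for miR-146b-5p. Of its 532 tailed miR-146b-5p reads, 470 ended in G, and of its 179 tailed miR-21a-5p reads, 163 did. AD replicate 3 had the next highest shares, 12.4% and 3.15%, and the other AD libraries had 2.59% to 2.99% for miR-146b-5p.

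**Figure D5:**
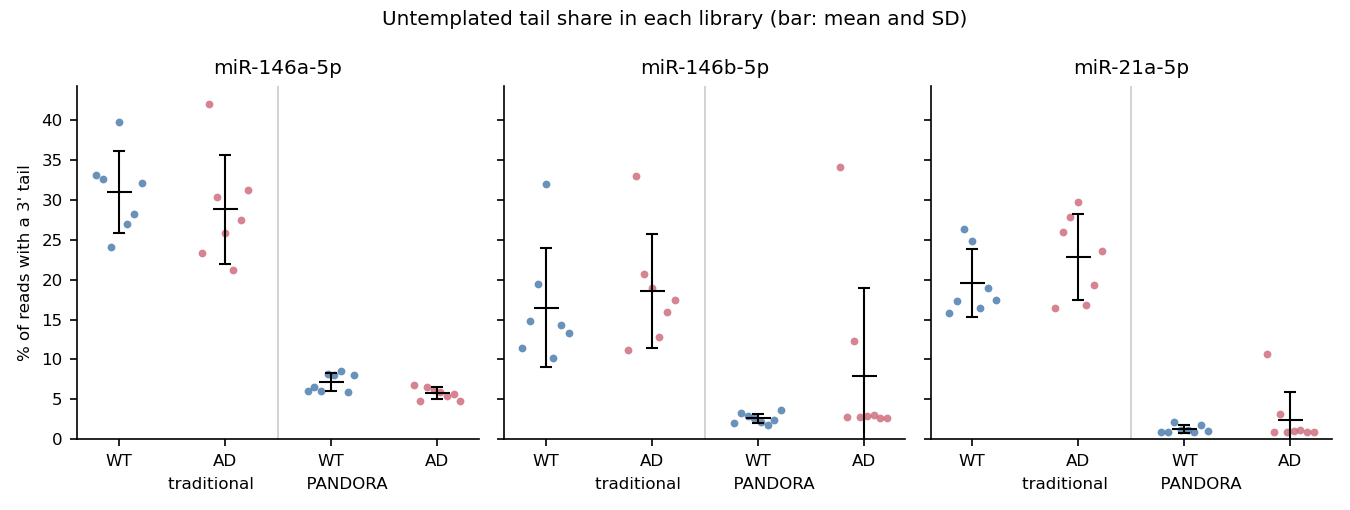
Percent of reads with an untemplated 3′ tail (y axis) of 3 arms in each library of the 4 groups, with the mean and SD (n = 7 per genotype in traditional-seq, 8 in PANDORA-seq). The PANDORA-seq libraries lie below all traditional-seq libraries, apart from AD replicates 1 and 3 for miR-146b-5p (34.1% and 12.4%).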

How the data were processed

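The authors deposited, for each library, the read count of each distinct sequence after adapter removal, without annotation or normalization. Per the labels the authors' build was mm39, but the files hold no positions, so GRCm38 coordinates are those of the annotation used here. The members and lists were chosen with earlier results of these data known. Whole reads of at least 15 nt were matched exactly and in sense to the 2202 GENCODE M21 miRNA hairpins, of which the 1174 with a Mir symbol were kept, a choice made after the data were seen. An arm was the hairpin side that held the middle of the read. Arms that shared most of their reads were merged. The 12 arms of the 6 hairpins were reported whatever their result, and other genes by lists or by likeness.

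Tests of counts used edgeR 4.0.16 under R 4.3.3 (TMM, filterByExpr with smallest count 10 and smallest total 15, quasi-likelihood test, Benjamini-Hochberg adjusted p under 0.05 over all arms). DESeq2 1.42.0 was an alternative. No fit had a term for sex, and the balance of the sexes between WT and AD libraries was not examined. Read forms were compared by two-sided exact permutation tests, or 100000 shuffles between protocols, with scipy and numpy, and simulated data were used to test the code. The study gives its group sizes in mice, so the libraries of a group were taken as separate mice. Whether both protocols used the same mice is not given in the sources used here, and their libraries were treated as independent, though 14 file codes occur in both. Same-numbered WT and AD libraries did not deviate together (correlations -0.42 to 0.37 in traditional-seq and -0.49 to 0.43 in PANDORA-seq), so they were not treated as pairs. Reads carry no molecular identifiers.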

Additional observations from a re-analysis of the deposited data

Results flagged for a closer look

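In 13 of 36 groups of libraries tested, 1 library stood far from the others by Dixon's test. Chance alone does this in about 1 in 20 groups when values are normally distributed and groups are independent. The values here were not log-transformed and the groups share libraries, so the count cannot be set against that rate. The level of miR-146a-5p was 1381 CPM in AD traditional-seq replicate 2 (next 479 CPM) and 742 CPM in WT PANDORA-seq replicate 1 (next 426 CPM). The same libraries had the highest miR-142a-3p levels, 32.4 CPM (next 11.4) and 27.9 CPM (next 12.3). The level of miR-155-5p was 6.57 CPM in WT traditional-seq replicate 5 (next 2.02), on 26 reads.

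The level of miR-21a-5p was 14496 CPM in WT traditional-seq replicate 6 (next 7890) and 2913 CPM in AD PANDORA-seq replicate 3 (next 1719), which also had the highest miR-142a-5p level of its group, 52.1 CPM (next 30.7). The level of miR-146b-5p was 1151 CPM in AD PANDORA-seq replicate 7 (next 798), and that of miR-223-5p 16.0 CPM in WT PANDORA-seq replicate 6 (next 8.38). The share of miR-146b-5p reads with a tail was 32.0% in WT traditional-seq replicate 4 (next 19.5%) and 34.1% in AD PANDORA-seq replicate 1 (next 12.4%). For miR-21a-5p it was 10.7% in AD PANDORA-seq replicate 1 (next 3.15%).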

How the results depend on the processing

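The count of arms called between AD and WT stayed at 0 in traditional-seq under every alternative run, with each library left out included. In PANDORA-seq it was 1, and became 3 with edgeR's likelihood ratio test, 4 with DESeq2, 5 without the filter on low counts, and 0 with all reads as library size or with reads of 20 to 24 nt. The test of the difference between protocols called 0 arms, and 1 with the likelihood ratio test. With the replicate number as a block (replicate block), 0 arms were called in traditional-seq and 1 in PANDORA-seq, and no call of the arms described here changed.

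The higher value of miR-223-5p in PANDORA-seq, 0.80 on the log2 scale, became -2.16 with all reads as library size, since miRNA then take a smaller part of the total, and miR-142a-3p, not called otherwise, became -3.24. The difference in the log2 ratio of miR-146a-5p to miR-146b-5p between AD and WT in PANDORA-seq ran from 0.34 to 0.66 with each library left out. It passed an unadjusted 0.05 without AD replicate 1, the library with the lowest AD ratio, whose omission must raise it. The cause of the other changes was not tested. The values of miR-155-5p, miR-223 and the 3p arms rest on few reads in a library.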
